A study of Mus musculus with 6 samples.

Results

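In mouse extra-embryonic endoderm (XEN) cells, 686 regions were called for GATA6, lay away from promoters and had no counterpart in the GATA4 list. The number depends on how many GATA6 libraries must agree: it was 2140, 2494 and 2399 without GATA6 replicates 1, 2 and 3, and 4488 where 2 of 3 libraries sufficed for both lists. The members were chosen by the calls themselves: each is a region of the combined GATA6 list that overlaps no region of the combined GATA4 list by as much as 1 bp and whose midpoint is more than 1 kb from every annotated transcription start site (TSS). These GATA6-list-only distal regions made up 686 of the 5170 regions of the combined GATA6 list, and of 13452 regions in both combined lists. Of the other GATA6 regions, 1682 were distal and shared with the GATA4 list, and 746 were absent from the GATA4 list but near a TSS. In CUT&RUN, an antibody leads a nuclease to a DNA-bound protein and the fragments cut beside it are sequenced. There were 3 libraries for GATA4 and 3 for GATA6, each with 500000 cells and 30000000 reads per the labels, all from XEN cells with the genotype 3F2 and with no treatment or time named. The 3F XEN lines come from mice with 3 engineered alleles, which both groups share: Oct4-GFP, a reporter of Oct4, with R26 M2rtTA and Col1a1 TetO-OKSmCh, which make reprogramming factors inducible. The study's methods name a further line, 3F6, and fewer replicates, so that the SDs given here may cover technical repeats of 1 line, which the files cannot show. A combined list holds only regions called in all 3 libraries of its factor, and no control library entered the call.

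GATA4 and GATA6 are zinc finger transcription factors of the primitive endoderm, the lineage that XEN cells represent, and both bind DNA at the GATA motif. The factors can bind many of the same sites, and each can take part in inducing endoderm genes. CTCF, a zinc finger protein with a long recognition sequence, binds insulators and the anchors of chromatin loops in most cell types and is no member of the GATA family.

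Stretches of the mm10 reference around the midpoints of 8 members show the sequence features described here. Capitals mark matches, on either strand, of a GATA motif (AGATAA or AGATAG or TGATAA or TGATAG) in the first 5 and of a core of the CTCF consensus in the last 3. All are written 5′ to 3′ on the plus strand. The first lies 14979 bp from the nearest TSS, of D830044D21Rik (chr14:31891449-31891648), in the member ranked 9 of 686 by total signal. The second, near Dnmbp (chr19:43950796-43950995), is in the highest-ranked member that no GATA4 library held. The third (chr13:12916365-12916564) holds 4 GATA motifs and is in an intergenic member of the Prl2c cluster, 81110 bp from a TSS of Prl2c2. The Tead1 stretch (chr7:112823638-112823837, in an intron) and the Col4a2 stretch (chr8:11485331-11485530, intergenic) lie within 50 kb of a TSS of listed genes described further on.
D830044D21Rik: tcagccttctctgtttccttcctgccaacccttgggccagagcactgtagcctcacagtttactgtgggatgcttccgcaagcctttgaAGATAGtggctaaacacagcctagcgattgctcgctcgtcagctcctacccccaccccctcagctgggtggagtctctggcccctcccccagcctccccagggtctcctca
Dnmbp: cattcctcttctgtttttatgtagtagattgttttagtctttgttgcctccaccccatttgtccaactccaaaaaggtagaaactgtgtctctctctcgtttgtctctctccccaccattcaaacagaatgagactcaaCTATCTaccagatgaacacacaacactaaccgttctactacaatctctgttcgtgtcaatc
Prl2c2: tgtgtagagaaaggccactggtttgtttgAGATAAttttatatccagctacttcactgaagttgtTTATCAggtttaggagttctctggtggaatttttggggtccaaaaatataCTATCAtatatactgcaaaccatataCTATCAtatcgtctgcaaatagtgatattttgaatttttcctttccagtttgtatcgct
Tead1: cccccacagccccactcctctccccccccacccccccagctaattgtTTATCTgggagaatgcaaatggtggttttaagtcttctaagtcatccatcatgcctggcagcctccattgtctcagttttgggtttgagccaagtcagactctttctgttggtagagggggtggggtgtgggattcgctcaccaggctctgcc
Col4a2: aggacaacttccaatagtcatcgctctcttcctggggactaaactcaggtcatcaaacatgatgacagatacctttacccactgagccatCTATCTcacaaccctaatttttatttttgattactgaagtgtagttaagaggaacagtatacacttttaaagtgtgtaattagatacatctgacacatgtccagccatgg
The stretches with a CTCF motif were chosen after their values were seen, for their high maximum signal. The choice did not follow that order strictly. A member with the motif near Atp23 (mean maximum 11.7) is not printed, and the one near Sgo2b (11) is. The printed stretches lie 40009 bp from a TSS of Map3k21 (chr8:125950359-125950558, intergenic), in an intron of Fam129a (chr1:151706115-151706314) and 74584 bp from a TSS of Sgo2b (chr8:63877486-63877685, intergenic). The Fam129a stretch also has a GATA motif, left in lower case.
Map3k21: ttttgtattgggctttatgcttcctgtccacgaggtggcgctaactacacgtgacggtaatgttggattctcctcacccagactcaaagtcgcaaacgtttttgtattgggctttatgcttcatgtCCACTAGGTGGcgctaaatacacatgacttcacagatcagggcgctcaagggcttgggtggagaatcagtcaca
Fam129a: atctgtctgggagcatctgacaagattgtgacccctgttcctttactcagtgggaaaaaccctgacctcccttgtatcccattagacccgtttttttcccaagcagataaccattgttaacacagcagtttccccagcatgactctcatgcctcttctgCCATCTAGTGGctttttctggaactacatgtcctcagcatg
Sgo2b: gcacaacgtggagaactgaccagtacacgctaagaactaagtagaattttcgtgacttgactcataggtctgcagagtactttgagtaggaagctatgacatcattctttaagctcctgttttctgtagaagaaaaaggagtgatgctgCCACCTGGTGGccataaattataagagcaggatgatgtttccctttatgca

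Most GATA6-list-only distal regions were not free of GATA4 calls. A region overlapped the member in at least 1 of the 3 GATA4 libraries for 554 members (80.8%, exact 95% binomial interval 77.6 to 83.6, which like every interval over regions here covers counting error only). Among all distal regions called in 3 GATA6 libraries, members and shared regions together, 94.4% were held by at least 1 GATA4 library. The rule itself fixes part of this gap, since a region held throughout GATA4 usually entered the combined GATA4 list and was then no member. The background fell with the number of GATA6 libraries that called a region, to 54.1% of distal regions called in 2 of them and 13.4% of those called in 1. By number of GATA4 libraries, 132 members were held by none, 185 by 1, 354 by 2 and 15 by all 3. The last 15 were held by pieces that did not join into 1 region common to the GATA4 libraries. The missing calls were spread over the GATA4 libraries. Replicate 1 held 334 members (48.7%), replicate 2 held 318 (46.4%) and replicate 3 held 286 (41.7%). Of those in exactly 2 GATA4 libraries, 145 were in replicates 1 and 2, 116 in replicates 1 and 3 and 93 in replicates 2 and 3. Members in no GATA4 library were wider (median 931.5 bp) and lower in GATA6 signal (median of the mean maximum 4 stacked fragments) than those in 2 (680 bp and 6), values that belong to the calls which chose them.

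**Figure D1:**
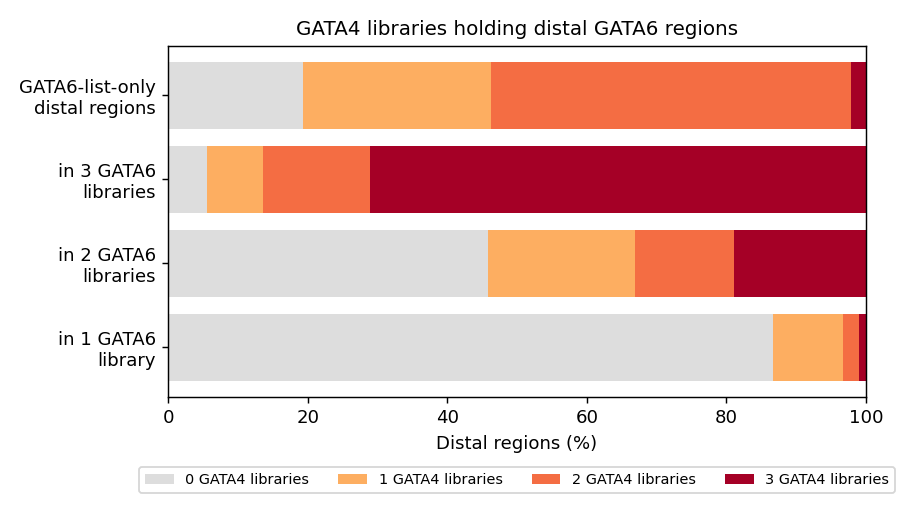
Share of distal GATA6 regions (horizontal axis, %) held by 0, 1, 2 or 3 GATA4 libraries, for the 686 GATA6-list-only distal regions and for all distal regions called in 3, 2 or 1 GATA6 libraries. Most members sit in 1 or 2 GATA4 libraries, whereas 71.1% of all distal regions called in 3 GATA6 libraries were held by 3 GATA4 libraries.

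The GATA6 signal of the members was low. Signal is the deposited pileup of fragments, not scaled for depth, so that heights in different libraries, and their means over libraries, are not corrected for depth. The maximum signal, the highest stack of fragments in a region, ranged from 2 to 19 in GATA6 replicate 1, from 2 to 21 in replicate 2 and from 2 to 23 in replicate 3, with medians of 6, 5 and 5. Shared distal regions reached 218, 197 and 198 in the same libraries, with medians of 8, 7 and 8. Ranked by total signal within each library, the median member stood at percentile 72.1, 74.3 and 74.1, and the median shared distal region at 92.1, 92.2 and 92.7. Averaged over the GATA6 libraries, the maximum was 5 or less in 294 members and over 8 in 134. The position of the maximum varied accordingly. It fell within 100 bp in all 3 GATA6 libraries for 49.1% of members (45.3 to 52.9), for 14.3% of those with a maximum of 5 or less and for 93.3% of those over 8. Tall members were narrow: the median width was 965.5 bp at 5 or less, 648.5 bp above 5 and up to 8, and 497.5 bp over 8.

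**Figure D2:**
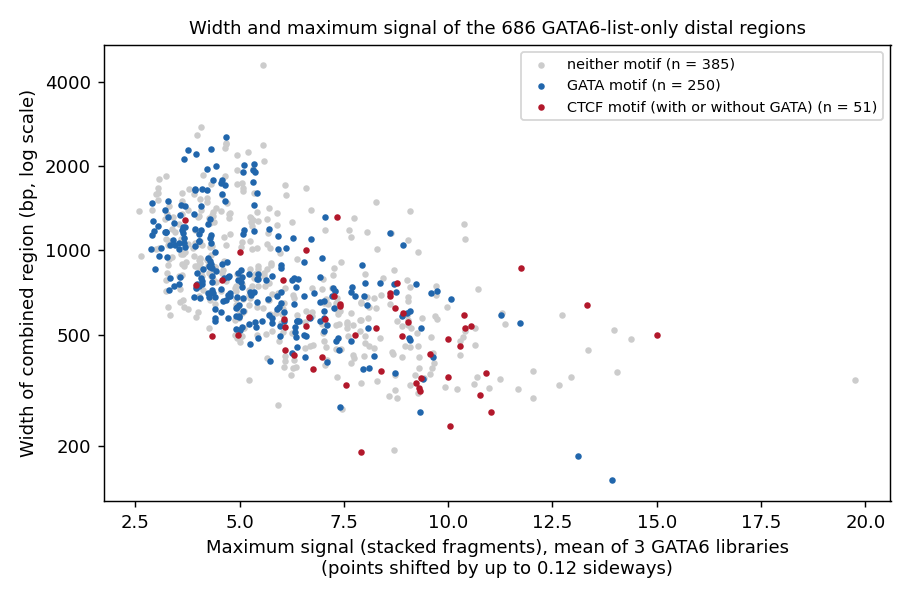
Width in bp (vertical log axis) against the maximum signal averaged over 3 GATA6 libraries (horizontal axis, stacked fragments), 1 point per member, coloured by motif within 100 bp of the midpoint. Tall members are narrow, with medians of 965.5 bp at 5 or less and 497.5 bp over 8, and CTCF motifs lie mostly to the right.

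By position, 330 members (48.1%) were intergenic, 317 (46.2%) lay in introns, 24 in exons and 15 in untranslated regions. The median distance to a TSS was 11508.5 bp, 173 members (25.2%) were within 5 kb of a TSS and 95 (13.8%) over 50 kb from any. Shared distal regions were placed much the same way, with 48.3% intergenic, 47.7% in introns and a median distance of 11605.5 bp. Median GC content was 47.6% in members and 47.3% in shared distal regions, and the median soft-masked repeat content 12.7% and 12.6%. A region of the combined GATA4 list lay within 10 kb of 211 members (30.8%) and within 1 kb of 39 (5.69%). At the edges of the rule, the member nearest to a TSS was an intronic region of Tcf23 at 1006 bp (chr5:30969326-30970010), and the closest excluded region lay 974 bp from a TSS (chr17:26884789-26885613). The member with the smallest gap to a GATA4 region was an intronic region of the noncoding RNA Ftx, 6 bp away (chrX:103591510-103592748), and the shared distal region with the least overlap had 5 bp (chr16:59359865-59362060).

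Members were concentrated on chromosomes 8, 14 and 19. These carried 99, 89 and 86 members, together 274 (39.9%, 36.3 to 43.7), on 12.7% of the assembled autosomes. That is 0.898 members per Mb against 0.189 on the other autosomes, a ratio of 4.74. The same ratio was 2.95 for shared distal regions, 1.92 for GATA4-list-only distal regions and 1.58 for GATA6-list-only promoter regions, so the pattern was present in each class. Chromosomes 8, 14 and 19 were already known from earlier results of these data to be dense, and their density in called regions is part of the calls that chose the members. At the level of libraries, the 3 chromosomes held 34.5%, 31.9% and 32.5% of all distal regions in GATA6 replicates 1, 2 and 3. In GATA4 replicates 1, 2 and 3 they held 30.3%, 29.1% and 32.9%. The values of the factors overlapped, and the difference of 2.22 percentage points gave p = 0.3 (two-sided exact permutation test, n = 3 and 3, smallest possible p 0.1). Within the members, the share on these chromosomes was 53.0% (44.2 to 61.8) where no GATA4 library held the region, 43.2% (36.0 to 50.7) where 1 did and 33.3% (28.4 to 38.5) where 2 did. Of the 15 members in all 3 GATA4 libraries it was 40.0% (16.3 to 67.7). It also moved with signal, from 55.4% of members with a maximum of 5 or less to 29.1% of those over 8.

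**Figure D3:**
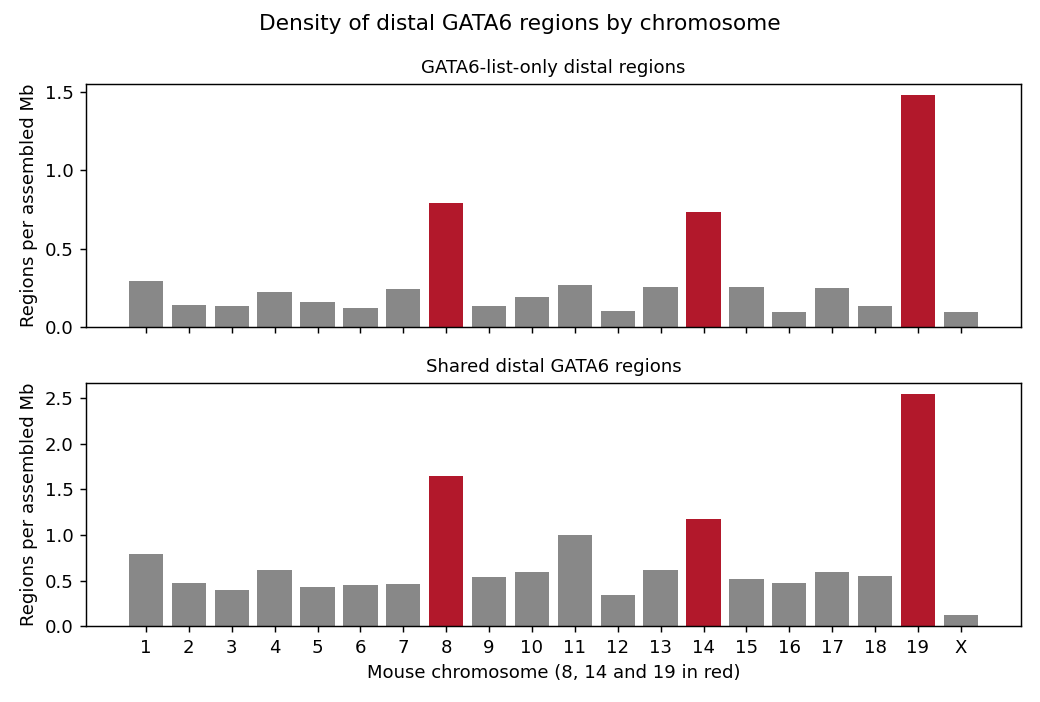
Regions per assembled Mb (vertical axes) on each mouse chromosome except Y, for the GATA6-list-only distal regions above and the shared distal GATA6 regions below. Chromosomes 8, 14 and 19, in red, stand above all others in both panels, at 0.898 members per Mb together against 0.189 on the other autosomes.

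On a finer scale, the 5 Mb of chromosome 19 between 40 and 45 Mb held 37 members (5.39%), of which 11 had a GATA motif and 9 were in no GATA4 library. The same interval held 43 shared distal regions (2.56%). It held 1.34% ± 0.0773 (SD, n = 3) of the distal regions of a GATA6 library and 1.26% ± 0.139 (n = 3) of those of a GATA4 library. On chromosome 13, all 13 members between 10 and 15 Mb (1.90%) had midpoints from 12835318 to 12935481, in the cluster of Prl2c genes, which encode placental hormones of the prolactin family. They were wide (median 1606 bp) and 8 had a GATA motif. The highest-ranked lay 94084 bp from the nearest TSS, of Prl2c3, and the one with the printed stretch 81110 bp from that of Prl2c2. This interval held 10 shared distal regions (0.595%), and 0.260% and 0.254% of the distal regions of a GATA6 and a GATA4 library (means, n = 3 each). Over all 686 members, these clusters included, 75 (10.9%) had another member within 10 kb, against 19.9% of the more numerous shared distal regions.

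A GATA motif was less common in members than in the other distal classes. It lay within 100 bp of the midpoint in 265 members (38.6%, 35.0 to 42.4), and in 30.3% (27.9 to 32.8) of windows of the same length placed 2 kb to either side. Shared distal regions had it in 58.4% (56.0 to 60.8), with 31.4% in their flanks, and GATA4-list-only distal regions in 60.5%, with 31.9%. The difference between members and shared distal regions was -19.8 percentage points, and it was described without a test because regions are not replicates. For 2 or more GATA motifs the shares were 12.7% of members and 29.8% of shared distal regions, and for a motif anywhere in the region 74.6% and 88.2%. Centring the window on the maximum signal of each GATA6 library gave 41.7% ± 0.719 for members and 67.8% ± 0.586 for shared distal regions (SD over 3 libraries reading the same regions). For comparison, all distal regions of a GATA6 library had the motif at their maximum in 41.5%, 42.0% and 41.3% of cases in replicates 1, 2 and 3, near the share of the members. GATA4 libraries had it in 47.4%, 48.6% and 46.1%. Each GATA6 library was below each GATA4 library. The mean difference, GATA6 minus GATA4, was -5.79 percentage points, with p = 0.1 (two-sided exact permutation test, n = 3 and 3), the smallest that this design can give.

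A CTCF motif was found in a larger share of members than of the other classes, under the rule that all 3 libraries of a factor agree. It lay within 100 bp of the midpoint in 51 members (7.43%, 5.59 to 9.66), and in 0.656% (0.30 to 1.24) of the flanking windows. It was found in 2.08% of shared distal regions (1.45 to 2.88), 2.26% of GATA4-list-only distal regions and 1.21% of GATA6-list-only promoter regions. The gap was absent where 2 of 3 libraries sufficed for both lists, with 3.54% of 4488 GATA6-list-only and 3.45% of 4111 shared distal regions. In the upper 50% of each library by total signal the shares were 3.39% and 1.02%, and without GATA6 replicates 1, 2 and 3 they were 5.75% and 2.3%, 4.49% and 2.14%, and 4.25% and 2.07%. Among these 51 members, 15 also had a GATA motif, and 41 were held by at least 1 GATA4 library (80.4%, 66.9 to 90.2), a share close to that of all members. Chromosomes 8, 14 and 19 held 21 of them (41.2%). At the maximum signal the CTCF share was 10.3% ± 0.367 for members and 3.09% ± 0.119 for shared distal regions (SD over 3 GATA6 libraries). Over all distal regions of a GATA6 library it was 1.62%, 1.73% and 2.10% in replicates 1, 2 and 3. The motif sat almost under the maximum. In the 50 members with exactly 1 CTCF motif in the window, the median distance from the maximum to the motif was 7 bp, 7 bp and 9.5 bp in GATA6 replicates 1, 2 and 3. In the 178 members with exactly 1 GATA motif there, the distances were 103.5 bp, 108.5 bp and 97.5 bp. Shared distal regions with 1 GATA motif gave 84 bp, 82 bp and 82 bp (481 regions). The share of regions with a GATA motif was nevertheless highest in the bin at the maximum in both classes. The CTCF and GATA distances come from unlike sets of members. The maximum fell within 100 bp in all 3 GATA6 libraries for 86.3% of members with a CTCF motif and 44.9% of those with a GATA motif. The GATA motif was also far more common in the flanking windows of members, at 30.3% against 0.656%.

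**Figure D4:**
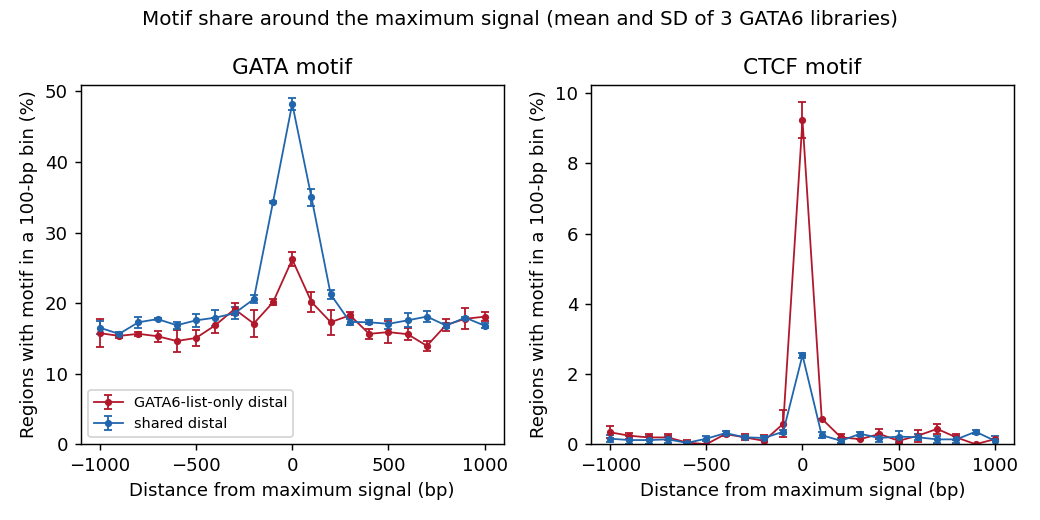
Share of regions with a motif in 100-bp bins (vertical axes, %) by distance from the maximum signal (horizontal axes, bp), mean and SD over 3 GATA6 libraries, for GATA6-list-only distal regions in red and shared distal regions in blue. At the maximum the GATA share is 26.2% in members and 48.3% in shared distal regions, and the CTCF share 9.23% and 2.54%.

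The members differed among themselves with signal, and over all members the motifs went opposite ways. The height classes were set after the data had been seen. With a maximum of 5 or less, 45.6% of members (39.8 to 51.5) had a GATA motif and 2.04% (0.753 to 4.39) a CTCF motif. Above 5 and up to 8 these shares were 39.5% and 6.98%. Over 8, 21.6% (15.0 to 29.6) had a GATA motif and 20.1% (13.7 to 27.9) a CTCF motif, and among the 41 members over 10 these were 14.6% and 24.4%. In shared distal regions the GATA share was 56.0% at 5 or less, 61.3% above 5 and up to 8, 55.2% over 8 and 46.1% over 10. Their CTCF share was 0.595%, 1.77%, 2.84% and 3.59% in these classes. Both shares thus moved the same way in the upper classes as in members, over a smaller range, and the difference between the classes was not tested. In GATA4-list-only distal regions, by signal in the GATA4 libraries, the GATA share rose instead. It was 51.3% at 5 or less, 61.1% above 5 and up to 8, and 65.8% over 8. GC content went with height, with a median of 45.0% at 5 or less and 52.3% over 8. The GC box GGGCGG was in 3.74% and 27.6% of members of these classes. Its part in the motif shares was not tested.

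**Figure D5:**
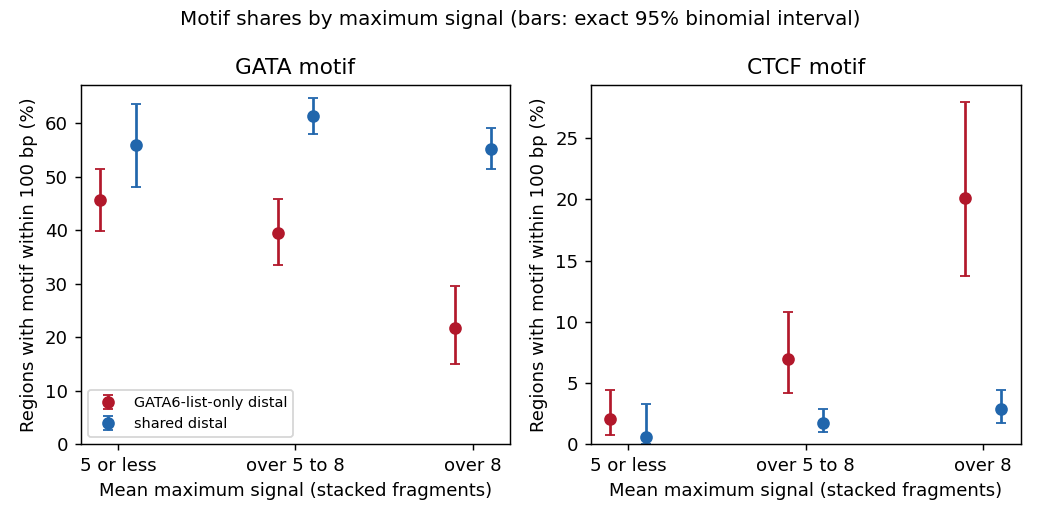
Share of regions with a GATA (left) or CTCF (right) motif within 100 bp of the midpoint (vertical axes, %) by class of mean maximum signal (horizontal axes, stacked fragments), with exact 95% binomial intervals. From the lowest to the highest class, the GATA share of members falls from 45.6% to 21.6% and the CTCF share rises from 2.04% to 20.1%.

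Low members fell into unlike groups by chromosome, a split also made after the data had been seen. Of the 131 members with a maximum of 5 or less outside chromosomes 8, 14 and 19, 61.1% (52.2 to 69.5) had a GATA motif, against 34.4% in their flanks. Shared distal regions of that height and place had it in 57.6% (48.2 to 66.7). Of the 163 low members on chromosomes 8, 14 and 19, 33.1% (26.0 to 40.9) had the motif, and 34.7% of their flanking windows did. Centred on the maximum of each GATA6 library, these shares of low members became 57.8% ± 1.17 outside and 39.1% ± 0.937 on these chromosomes (SD, n = 3 libraries). The 50 low shared distal regions on chromosomes 8, 14 and 19 had the motif near the midpoint in 52.0% (37.4 to 66.3), with 28.0% in their flanks. Above 5 and up to 8, the GATA share of members was 37.1% outside these chromosomes, with 27.7% in the flanks. On them it was 45.8%, with 29.2% in the flanks. Over 8, by contrast, it was 17.9% (10.8 to 27.1) outside them, with 95 members, and 22.6% in the flanks. On them it was 30.8% (17.0 to 47.6), with 39 members, and 32.1% in the flanks. The GATA share thus fell from class to class only outside these chromosomes. The CTCF share over 8 was 16.8% outside and 28.2% on them. The intervals over 8 overlapped for both motifs.

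Some genes of the XEN program had a member nearby. 8 gene lists were searched for a member within 50 kb of any TSS, beside 5.06% of all 21951 protein-coding genes that had one and 10.3% that had a shared distal region. Among 30 XEN and primitive endoderm genes 4 had a member (13.3%) and 14 a shared distal region (46.7%). Of 26 basement membrane genes 1 had a member, Col4a2, which is also on the XEN list, and 10 a shared distal region. For the 26 pluripotency genes and the 20 genes of FGF, PDGF and ERK signalling the number with a member was 0, and 3 (11.5%) and 4 (20%) had a shared distal region. For 12 AP-1 genes it was 2, for 8 GATA factors and cofactors 1, for 12 Hippo pathway genes 1 and for 15 retinoic acid genes 1. With counts this small, no list is set apart from all genes here. Of the genes with a member, Col4a2, Plat and Jund lie on chromosome 8 and Cyp26a1 on chromosome 19, where members were dense. Krt8, Krt18, Fosb, Gata3 and Tead1 lie elsewhere, and the share of all genes was not split by chromosome.

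Col4a2, which encodes a chain of the basement membrane collagen IV, had 3 members. Distances are to the nearest annotated TSS of Col4a2, which can lie inside the gene. The region at 44322 bp (chr8:11484412-11486449) was intergenic and nearer to a TSS of Rab20, at 6721 bp. Its maxima were 6, 7 and 3 in GATA6 replicates 1, 2 and 3. It was held by GATA4 replicates 1 and 3 and contained 5 GATA motifs, 1 of them in the printed stretch. A neighbour at 41441 bp had maxima of 5, 4 and 4, also with 5 GATA motifs. The intronic member at 10305 bp had 8, 5 and 5, no GATA motif and no GATA4 call. Plat, the tissue plasminogen activator, had an intronic member with maxima of 7, 4 and 4. The epithelial keratin genes Krt8 and Krt18 shared 1 member, 2690 bp from the TSS of Krt18, with maxima of 5, 4 and 5. These 5 members were modest in height in every GATA6 library. Another, taller than these in GATA6 replicates 1 and 3 but not in replicate 2, lay in an intron of Gata3. This GATA factor is best known from trophoblast and T cells. The region lay 1123 bp from the TSS, with maxima of 12, 4 and 7 and no GATA motif. Its maximum was highest in replicate 1, in unscaled fragments. Tead1, a DNA-binding effector of the Hippo pathway, had an intronic member with maxima of 7, 6 and 3 and the GATA motif printed above. Cyp26a1, which degrades retinoic acid, had one at 45592 bp with maxima of 6, 6 and 4. Of the AP-1 genes, Fosb had a member at 16528 bp with maxima of 7, 9 and 12. Jund had 2, at 49468 bp with maxima of 14, 8 and 9 and at 21975 bp with 4, 5 and 6. The taller lay in an untranslated region of Pgpep1, 5898 bp from a TSS of that gene.

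By rank of total signal within the GATA6 libraries, the 10 highest members were mostly wide regions of moderate height. The first, in the Prl2c cluster (chr13:12892976-12895350), was 2375 bp wide with maxima of 6, 5 and 6 and had calls of 5, 4 and 4 in GATA4 replicates 1, 2 and 3. The second, 7448 bp from a TSS of Cd244a, had maxima of 7, 7 and 6, and the third, near Spats2, of 9, 12 and 10. Others lay near Dnase1l3 (11, 6 and 10), Abt1 (6, 7 and 5), Btn2a2 (6, 5 and 5) and Abcc2 (4, 4 and 6), in an exon of Tekt5 (15, 9 and 18) and in an intron of AC138790.2 (5, 6 and 5). Each of the 10 was held by 2 or 3 GATA4 libraries, and 1 of them, near D830044D21Rik with maxima of 16, 11 and 8, had a GATA motif within 100 bp of its midpoint. The highest members with no GATA4 call were low in every GATA6 library. The Dnmbp region had 4, 4 and 5, an intergenic one near Gm41219 on chromosome 14 had 3, 5 and 5, and an intronic one of Got1l1 had 3, 4 and 3. Those of Chil3 and Sh3rf1 had 5, 4 and 3 and 3, 4 and 5. The most GATA motifs, 14, were in an intron of Cd244a, in the widest member (4578 bp), and in an intron of Slc22a27 (1643 bp). Next were the regions near Cpn1 and in the Prl2c cluster with 11 each and near Gm29500 with 10. Rank could differ between replicates: the Cd244a intron stood at percentile 99.4 and 99.6 in GATA6 replicates 1 and 3 and at 31.2 in replicate 2. The 3 lowest members, near Odc1, Gm40761 and Gm38256, had mean maxima of 4.33, 3.33 and 3, and each had a GATA motif in the window.

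The tallest members by maximum signal were named after their values were seen. Of those named, the Tekt5 exon was also among the 10 highest by total signal. An intronic region of Abr (chr11:76446323-76446668) had maxima of 15, 21 and 23 in the GATA6 libraries and 18 in GATA4 replicate 2, with no call in the other GATA4 libraries. The Map3k21 region had 19, 10 and 16, and 9 and 18 in GATA4 replicates 1 and 2. An intron of Slc11a2 gave 11, 15 and 17, the Tekt5 exon 15, 9 and 18, a region near Npas2 18, 10 and 14, and one near Ifngr2 16, 13 and 13. Of these 6, 1 had a GATA motif within 100 bp of the midpoint (Ifngr2), 1 had a CTCF motif (Map3k21), and each was called in 1 or 2 GATA4 libraries at a height of 9 or more. The Fam129a region, with both motifs, had 15, 13 and 12 in GATA6 and 13 and 9 in GATA4 replicates 2 and 3. The Sgo2b region, only 265 bp wide, had 12, 8 and 13, and 10 in GATA4 replicate 1. Where members were called for GATA4, their median maximum was 6 in each GATA4 library.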

How the data were processed

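The report describes regions called from CUT&RUN libraries, 3 for GATA4 and 3 for GATA6, grouped by sample title. The authors aligned reads to mm10 with Bowtie2 2.3.4.1, removed duplicates, poorly mapped and mitochondrial reads and blacklisted regions, and called regions per library with SEACR 1.3 at a numeric threshold. The deposited lists give total and maximum signal per region, unscaled for depth, and the combined lists positions only. Merging the libraries gave the same 8282 GATA4 and 5170 GATA6 combined regions. Filtered read numbers are not given, so that depth per library is unknown.

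TSSs of protein-coding and lncRNA genes came from GENCODE M21, and sequence from RefSeq's GRCm38. Motif matches on either strand were counted up to 100 bp from each midpoint. Of the words printed, GATAA, tried as an alternative, lies inside AGATAA and TGATAA. Intervals are exact (Clopper-Pearson, 95%). Only libraries were tested, by exact permutation. Same-numbered libraries share a number and no stated source, and the main tests have no block.

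The members, gene lists, motifs and chromosomes were chosen with earlier results of these data known. Regions named are the 10 of highest mean percentile of total signal, the 5 highest in no GATA4 library, the 5 with most GATA motifs, the 3 lowest, those at the thresholds, and those within 50 kb of a listed gene. Others are said to be chosen after their values were seen. The code was tested on simulated data with planted sites. Versions were scipy 1.17.1, numpy 2.4.6, matplotlib 3.10.9, pandas 2.3.3 and Python 3.11.15.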

Additional observations from a re-analysis of the deposited data

How the results depend on the processing

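Of 99 recomputed values, 76 stayed within 1.5 times the count, the exact interval of the share or, for the library tests, the direction and side of the threshold, and 23 moved. For the library tests the side of the significance threshold was fixed in advance, since even 3 against 3 libraries give no p below 0.1. Those tests all count among the 76 and could move only by a change of direction. No difference changed sign. The number of members depended on how many libraries had to agree: calls in at least 2 of 3 libraries gave 4488 and the upper 50% of each library by total signal 383. Leaving out 1 library gave 549 to 2494, with 2140, 2494 and 2399 without GATA6 replicates 1, 2 and 3, where 2 calls suffice for the GATA6 list. The share on chromosomes 8, 14 and 19 was 49.6% with 2 of 3 libraries, 33.7% in the upper 50%, 28.3% for members with a maximum signal over 5 and 40.4% to 45.9% without 1 library. The GATA share was 66.2% with 250 bp to each side and 29.9% for GATAA, and 37.7% to 41.0% without 1 library. Its difference from shared distal regions was -24.3 percentage points in the upper 50%, -26.1 centred on the maximum and -23.6 to -17.9 without 1 library. The share held by at least 1 GATA4 library was 85.0% without chromosomes 8, 14 and 19 and 54.7% where 50% of the member had to be covered. Alternatives for the CTCF share, with those on members near each other and on a maximum over 5, were chosen after seeing the data. The CTCF share was 3.54% with 2 of 3 libraries, where that of shared distal regions was 3.45%, 3.39% in the upper 50%, 10.5% with 250 bp, 10.3% at the maximum, 5.10% for a longer form of the motif and 4.25% to 8.25% without 1 library. With replicate numbers as a replicate block, the library differences stayed at 2.22 and -5.79 percentage points, with exact sign-flip p = 0.5 and 0.25 (the smallest that 3 pairs allow). Deviations of same-numbered libraries correlated at 0.00102, 0.00148 and 0.00118, against -0.00317 to 0.00194 for differently numbered ones. The calls thus showed no pairing by number. Most distal GATA6 regions were called in 1 GATA6 library, so that this measure cannot settle whether libraries shared a preparation. Few stacked fragments per region limit every call, and no read totals per library were at hand.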

Other observations

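Other motifs were described in the same windows. The AP-1 site TGANTCA lay in 9.04% of members (7.0 to 11.4) and in 5.17% of their flanks, and in 10.9% of shared distal regions. The words of TEAD factors (GGAATG) and SOX factors (AACAAT) were found in 12.7% and 11.7% of members, with 10.7% and 11.6% in the flanks, against 18.1% and 17.7% of shared distal regions. The forkhead word TGTTTAC was in 2.77% of members and 2.92% of their flanks. The GC box was in 12.1% of members and 4.08% of flanks, a share near the 12.4% of shared distal regions, and the E-box CACGTG in 3.50% and 1.97%.

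Members inside genes numbered 356, in 330 genes. Plce1 on chromosome 19 and the transcript Gm20388 on chromosome 8 had 6 each, and Pik3ap1, Slit1 and Sufu on chromosome 19 and Zmiz1 on chromosome 14 had 4 each. These 6 genes all lie on chromosomes 8, 14 or 19, which held 39.9% of all members. Among genes with 3 members were AC138790.2, AC138790.3 and Lcor on chromosome 19 and Mroh2a on chromosome 1. Gene length was not taken into account. Repeats covered over 50% of 46 members (6.71%, 4.95 to 8.84), against 3.98% of shared distal regions (3.10 to 5.03).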
